A study of Drosophila melanogaster with 6 samples.

Results

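The 10 genes described here encode the core of the target of rapamycin (TOR) growth pathway of the fly: the kinase Tor with its partners raptor, rictor and Lst8, the small GTPase Rheb, the TSC proteins Tsc1 and gig, the Rag GTPases RagA-B and RagC-D, and the kinase S6k. They were taken by name from the 8470 genes of the deposited gene table. Of them, 9 were matched by symbol, and Tor, which the table lists as mTor, was matched by its gene ID FBgn0021796. All 10 were among the 17609 genes summed from the transcript files and among the 9080 genes that passed the filter on low counts, so none was left out.

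The study sequenced mRNA of intestinal stem cells (ISCs) of the adult female Drosophila midgut in order to find genes that depend on Nuclear Factor Y (NF-Y), a transcription factor of 3 subunits. In the NF-YA RNAi group, with libraries 2, 4 and 5, the driver was crossed to an RNAi line against the NF-YA subunit (VDRC 106132). In the control group, with libraries 1, 2 and 3, the same driver was crossed to Oregon R, a strain other than that of the RNAi line, so the RNAi and the strain background cannot be told apart. Both groups carried Esg-Gal4-ts, a Gal4 under the progenitor gene esg. Per the study, a temperature-sensitive Gal80 (Tub-Gal80ts) blocks this Gal4 until it is inhibited at 29 °C. Both also carried the reporter UAS-2x YFP and Su(H)-GBE-Gal80, which blocks Gal4 in enteroblasts, the daughters of ISCs on the way to enterocytes. Per the labels, flies of both groups spent 3 days at 18 °C and 3 days at 29 °C, the temperature that switches Gal4 on, followed by 3 days on holidic food, a chemically defined diet. The methods of the study instead place 3 days of holidic diet at 29 °C. YFP-positive cells were sorted from dissociated midguts, and 1 RNAi line was used.

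TOR is a protein kinase that matches cell growth to nutrients and works in separate complexes. Complex 1, which holds raptor, promotes translation and other synthesis and restrains autophagy, and complex 2, which holds rictor, phosphorylates Akt. Amino acids act on complex 1 through the Rag GTPases at the lysosome, and insulin signalling acts through the TSC proteins, which keep Rheb inactive. In the midgut, the pathway is known for its part in the growth and division of ISCs and in the response of the gut to food. Much of its control takes place on proteins, which mRNA sequencing does not measure.

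The libraries held 77092609 to 118463169 estimated counts in NF-YA RNAi and 98240298 to 122269943 in control. Nf-YA, the target of the RNAi, had 3.577, 4.920 and 4.301 CPM (counts divided by the TMM-normalized library size and given on a common scale) in NF-YA RNAi libraries 2, 4 and 5, against 16.0, 19.7 and 23.6 CPM in control libraries 1, 2 and 3. It fell by 2.21 on the log2 scale (adjusted p = 0.00020 and standard error 0.20 by the quasi-likelihood test of edgeR, with the adjustment of Benjamini and Hochberg), and the groups lay far apart, as the labels say. Its partners Nf-YB (log2 fold change 0.00, 95% interval -0.72 to 0.73) and Nf-YC (-0.33, 95% interval -0.66 to 0.01) were not called. With the level of enterocyte markers, genes of the absorptive cells, as a covariate, the estimate for Nf-YC turned to 0.064. Here a gene is called where its adjusted p is under 0.05. The progenitor gene esg was present at 181 CPM in NF-YA RNAi and 279 CPM in control, and the 10 progenitor markers summed to 3455 to 3662 CPM in NF-YA RNAi and 3875 to 4574 CPM in control, with none of them at 0, 9 of 10 lower in point estimate and 3 called lower (median log2 fold change -0.24). Markers of enterocytes summed to 347 to 1458 CPM in NF-YA RNAi and 1969 to 5489 CPM in control, and 7 of their 15 genes were called lower. Markers of enteroendocrine cells summed to 470 to 1092 CPM against 1657 to 2096 CPM, with 4 of 10 called lower. No gene of either list was at 0 in all libraries. Of all genes tested, 8.02% were called lower. Of 10 visceral muscle markers, 10 were lower in point estimate and 0 were called (median log2 fold change -1.83). Of 4 neuron markers tested, 4 were lower and 0 were called (median -0.63). Of 3 hemocyte markers tested 2 were lower, with 1 called lower and 1 called higher. Of 4 fat body markers tested 1 was lower, with 0 called. Fewer cells of a type and less RNA per cell cannot be told apart in such bulk libraries.

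None of the 10 genes differed between NF-YA RNAi and control by a margin that passed the test. All 10 genes were detected in every library, with counts summed over their transcripts between 434 and 14707, and their fold changes were small. The median log2 fold change was -0.05, against -0.02 over all 9080 genes tested. The median size of the change, without its sign, was 0.09 on the log2 scale, against 0.31 over all genes, and 9 of the 10 lay below that. All genes tested include some with far fewer counts than the 10, and the comparison was not matched for level. Of the genes, 3 were higher and 7 were lower in NF-YA RNAi in point estimate, while 51.7% of all genes tested had an estimate below 0.

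By edgeR, 0 of the 10 were called (14.2% of all genes tested: 6.19% higher and 8.02% lower), and the smallest adjusted p was 0.19, for rictor. At a share of 14.2%, 0 calls among 10 genes say little. At an unadjusted p under 0.05, edgeR gave 0 of 10 as well (29.3% of all genes: 13.4% higher and 15.9% lower). DESeq2 also called 0 of 10 (21.3% of the genes to which it gave an adjusted p) and had 1, rictor, at an unadjusted p under 0.05. For 0 of the 10 genes did the libraries of the groups stand apart without overlap, which 35.9% of all genes tested did (16.5% higher and 19.4% lower in NF-YA RNAi). For 1 gene alone, permuting 3 and 3 libraries can give no exact two-sided p below 0.1.

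The precision of these estimates was as follows. The 95% intervals of the log2 fold changes had half-widths between 0.21 and 0.52, the lowest bound was -0.61 (rictor) and the highest was 0.85 (RagA-B). Libraries of the same group differed by a coefficient of variation, pooled over both groups, of 5.54% (raptor) to 16.3% (Tor). Its median was 12.6% over the 10 genes and 15.8% over all genes. Counting error alone was smaller than these pooled values, at most 4.80% at the lowest count. The spread within a single group could be smaller, as in the NF-YA RNAi libraries of raptor (74.1 ± 0.26 CPM, SD, n = 3). A missing call does not show that the levels were equal.

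**Figure D1:**
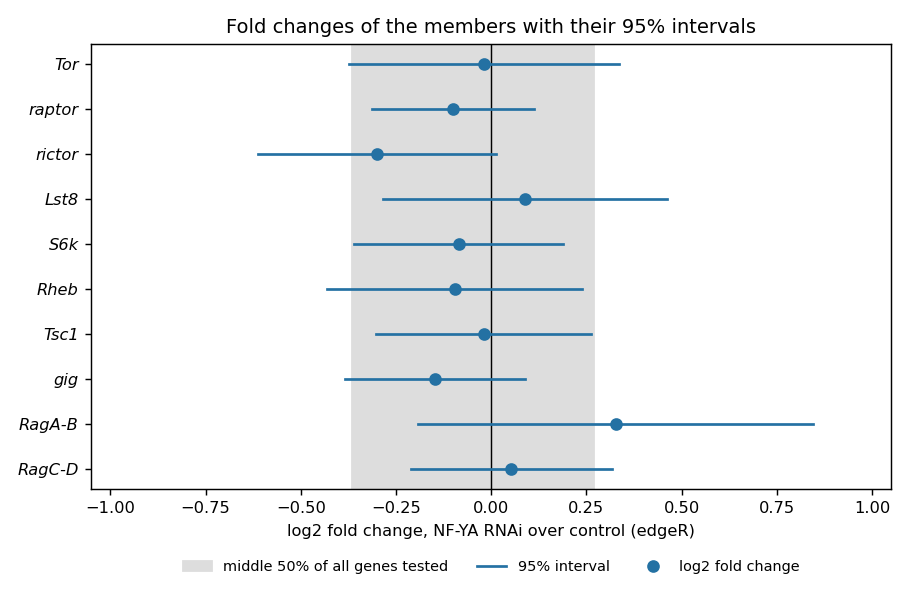
Log2 fold change of each of the 10 genes in NF-YA RNAi over control (points, x axis), with its 95% interval from edgeR (lines), and the middle 50% of the log2 fold changes of all 9080 genes tested (grey, -0.37 to 0.27). All 10 intervals include 0, and 9 of the 10 points lie inside the grey band, RagA-B being the one to its right.

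Tor encodes the kinase of both complexes (chromosome 2L, 13004480 to 13013197, plus strand, 7 exons). It had 36.4, 27.6 and 24.7 CPM in NF-YA RNAi libraries 2, 4 and 5, against 32.6, 30.7 and 26.6 CPM in control libraries 1, 2 and 3. NF-YA RNAi held both the highest and the lowest library, and the controls lay between them. The log2 fold change was -0.02 (standard error 0.16, 95% interval -0.37 to 0.33, adjusted p = 0.95 by edgeR), and its sign turned in several of the alternative fits. With the enterocyte marker level as a covariate the estimate was 0.46 (unadjusted p = 0.034, adjusted p = 0.62 by edgeR). Because that level did not overlap between the groups, this fit cannot cleanly divide its part from that of the RNAi.

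Lst8, a WD-repeat protein bound to the kinase domain in both complexes, lies on chromosome X (9604154 to 9605969, minus strand, 2 exons). It had 17.8, 12.7 and 18.0 CPM in NF-YA RNAi libraries 2, 4 and 5, against 13.8, 16.6 and 15.2 CPM in the controls. Again the NF-YA RNAi libraries spanned the controls, library 4 being below and the other 2 above all of them. Its estimate was 0.09 on the log2 scale (standard error 0.17, 95% interval -0.28 to 0.46, adjusted p = 0.78 by edgeR). Its exons share 127 bases with Gga on the opposite strand, which had 19.6 ± 1.66 CPM in NF-YA RNAi and 21.7 ± 1.89 CPM in control (SD, n = 3 each). The strand setting of the counting is not given in the sources used here, so reads from those bases cannot be told apart.

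The gene raptor encodes the subunit that brings substrates to complex 1 (chromosome X, 6082634 to 6090201, minus strand, 5 exons). Its levels were 74.3, 74.2 and 73.8 CPM in NF-YA RNAi libraries 2, 4 and 5, against 85.2, 80.2 and 72.9 CPM in the controls. The NF-YA RNAi libraries were nearly equal to each other (SD 0.26 CPM), and the controls spread on both sides of them, library 3 below and libraries 1 and 2 above. On the log2 scale the estimate was -0.10 (standard error 0.10, 95% interval -0.31 to 0.11, adjusted p = 0.54 by edgeR), which is the narrowest interval of the 10 genes. Mipp2 lies across raptor on the same strand and shares 1669 of its 7097 exon bases, but held only 0.50 to 1.83 CPM in NF-YA RNAi and 0.61 to 2.46 CPM in control. The antisense RNA asRNA:CR44959, which overlaps 241 of the exon bases, had no counts in any library.

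The gene rictor, for the defining subunit of complex 2, came closest to a call (chromosome X, 19252111 to 19261240, minus strand, 12 or 13 exons). It had 71.1, 54.7 and 64.4 CPM in NF-YA RNAi libraries 2, 4 and 5, against 76.1, 91.2 and 67.0 CPM in the controls. Control libraries 1 and 2 were above every NF-YA RNAi library, while control library 3 was below NF-YA RNAi library 2, so the groups overlapped. The log2 fold change was -0.30 (standard error 0.14, 95% interval -0.61 to 0.01, adjusted p = 0.19 by edgeR), a fitted level of 0.81 times that of control. This estimate kept its sign in all 16 alternative fits, between -0.42 and -0.15, and was called in none of them. Its unadjusted p was 0.042 by DESeq2. By edgeR it was 0.037 with no filter on low counts and 0.046 with at least 10 counts in every library. A block by the replicate numbers of the titles gave 0.0455 by edgeR. By edgeR it was 0.020 without control library 3 and 0.030 without NF-YA RNAi library 2. In the other alternative fits the unadjusted p was above 0.05. Omitting a library moved it from -0.40 (without control library 3, adjusted p = 0.10 by edgeR) to -0.17 (without control library 2, adjusted p = 0.51 by edgeR). It was -0.21 without NF-YA RNAi library 4 and -0.15 with the enterocyte marker level as a covariate.

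S6k is the kinase that complex 1 activates and that phosphorylates ribosomal protein S6 (chromosome 3L, 5797549 to 5810931, minus strand, 10 exons). It had 105.6, 114.8 and 119.5 CPM in NF-YA RNAi libraries 2, 4 and 5, against 141.9, 106.3 and 112.5 CPM in the controls. Control library 1 was the highest, and the other 2 controls lay within the range of NF-YA RNAi. For S6k the log2 fold change was -0.09 (standard error 0.12, 95% interval -0.36 to 0.19, adjusted p = 0.71 by edgeR), and it was 0.05 without control library 1.

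**Figure D2:**
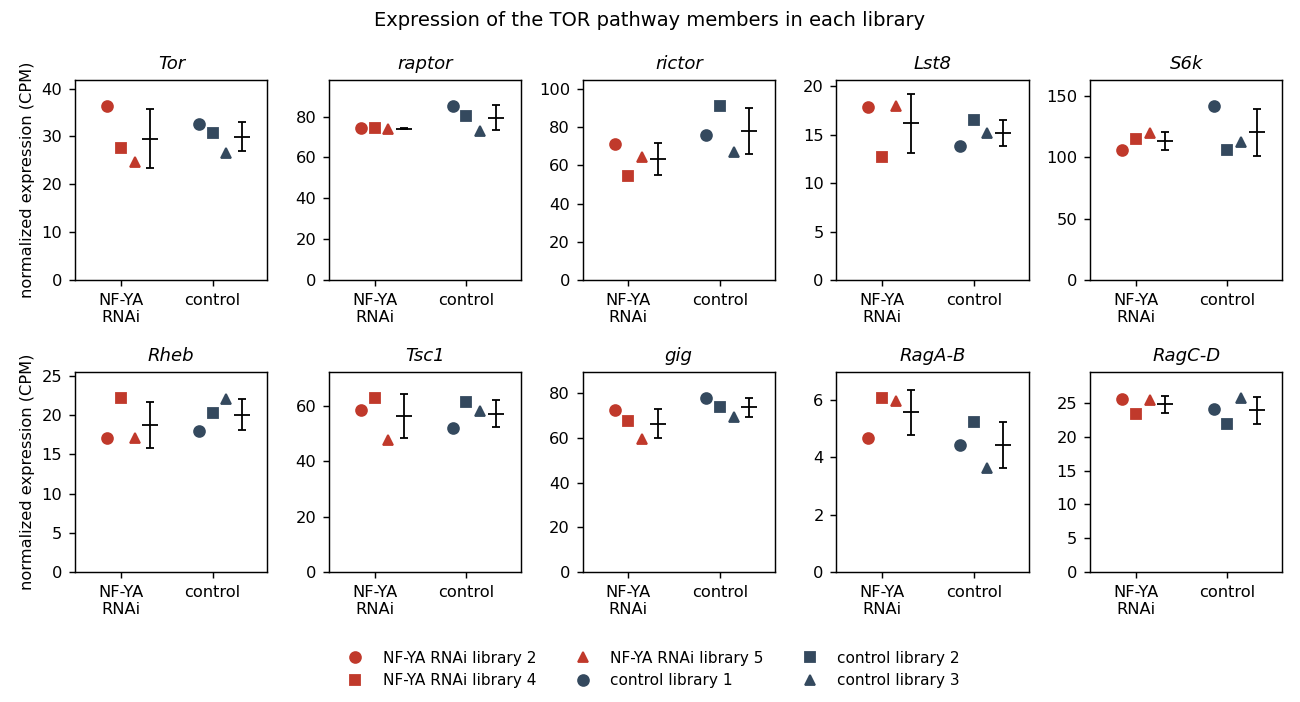
Normalized expression (CPM, y axis from 0) of each gene in NF-YA RNAi libraries 2, 4 and 5 (red) and control libraries 1, 2 and 3 (dark blue), with the mean and SD of each group (n = 3) as a black bar. The ranges of the groups overlap in all 10 panels, and the 3 NF-YA RNAi libraries of raptor lie together at 73.8 to 74.3 CPM.

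The TSC proteins and Rheb, which sit directly upstream of complex 1, showed the same lack of separation. Tsc1, the scaffold of the TSC complex (chromosome 3R, 24130307 to 24134654, plus strand, 7 exons), had 58.5, 62.8 and 47.7 CPM in NF-YA RNAi libraries 2, 4 and 5, against 51.9, 61.4 and 58.1 CPM in the controls. Its controls lay inside the range of NF-YA RNAi, and the log2 fold change was -0.02 (standard error 0.13, 95% interval -0.30 to 0.26, adjusted p = 0.94 by edgeR). The gene gig, the fly Tsc2, encodes the subunit that switches Rheb off (chromosome 3L, 20129181 to 20139010, plus strand, 15 exons). It had 72.4, 67.5 and 59.5 CPM in NF-YA RNAi libraries 2, 4 and 5, against 77.9, 73.7 and 69.4 CPM in the controls. NF-YA RNAi libraries 4 and 5 were below all controls, and library 2 was above control library 3. The log2 fold change of gig was -0.15 (standard error 0.11, 95% interval -0.38 to 0.09, adjusted p = 0.41 by edgeR), and it turned to 0.10 with the enterocyte marker level as a covariate.

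Rheb, the GTPase that activates complex 1, lies on chromosome 3R (5568921 to 5570491, plus strand, 5 or 6 exons). It had 17.1, 22.2 and 17.1 CPM in NF-YA RNAi libraries 2, 4 and 5, against 18.0, 20.2 and 22.0 CPM in the controls. NF-YA RNAi library 4 was the highest of all 6, and the other 2 NF-YA RNAi libraries were the lowest. The log2 fold change was -0.10 (standard error 0.15, 95% interval -0.43 to 0.24, adjusted p = 0.73 by edgeR).

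The Rag GTPases, which work as a pair of RagA-B with RagC-D, were the members with the highest positive and a near-zero estimate. RagA-B (chromosome 3R, 8982732 to 8984315, minus strand, 4 exons) had 4.66, 6.07 and 5.97 CPM in NF-YA RNAi libraries 2, 4 and 5, against 4.43, 5.24 and 3.64 CPM in the controls. NF-YA RNAi libraries 4 and 5 were above all controls, while library 2 was below control library 2. On the log2 scale RagA-B differed by 0.33 (standard error 0.23, 95% interval -0.19 to 0.85, adjusted p = 0.40 by edgeR). It was positive in all 16 alternative fits, between 0.11 and 0.46, and was called in none. This gene had the fewest counts of the 10 and the widest interval. Its exons share 62 bases with CAHbeta on the opposite strand, which had 2.34 ± 0.95 CPM in NF-YA RNAi and 2.26 ± 0.22 CPM in control (SD, n = 3 each). RagC-D (chromosome 2R, 8161679 to 8163500, minus strand, 5 exons) had 25.6, 23.4 and 25.5 CPM in NF-YA RNAi libraries 2, 4 and 5, against 24.2, 21.8 and 25.7 CPM in the controls. Here the controls held both ends of the range, and the log2 fold change was 0.05 (standard error 0.12, 95% interval -0.21 to 0.32, adjusted p = 0.82 by edgeR).

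The extreme values were spread over the libraries. Over the 10 genes, the lowest library was NF-YA RNAi library 5 in 4 cases, NF-YA RNAi library 4 in 2, control library 3 in 2 and 1 each in NF-YA RNAi library 2 and control library 2. The highest was NF-YA RNAi library 4 in 3 cases and control library 1 in 3, with 1 case in each of the others. In the deposited gene table, normalized by the authors, the 10 log2 fold changes from limma were at most 0.01 away from those of edgeR, and the farthest from 0 was 0.34.

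Levels of different genes were compared per transcript length, as TPM (abundance scaled by transcript length and by the total of the library). S6k stood first, with a mean of 26.6 TPM in NF-YA RNAi and 26.7 TPM in control, and its lowest library in either group (25.3 TPM in NF-YA RNAi, 24.2 TPM in control) was above the highest library of every other gene. Rheb (16.0 TPM in NF-YA RNAi, 16.2 TPM in control), RagC-D (15.9 and 14.4 TPM) and Tsc1 (13.1 and 12.6 TPM) followed. RagC-D and Tsc1 did not overlap in NF-YA RNAi but did in control, while Rheb and RagC-D overlapped in both. The next 4 genes, gig (10.2 TPM in NF-YA RNAi, 10.7 TPM in control), raptor (9.26 and 9.37 TPM), Lst8 (8.98 and 7.98 TPM) and rictor (8.51 and 9.95 TPM), each overlapped with their neighbours in the order. Tor (3.26 TPM in NF-YA RNAi, 3.12 TPM in control) and RagA-B (4.01 and 3.02 TPM) were the lowest in both groups, below every library of the other 8 genes and overlapping with each other. By mean TPM over the 6 libraries, Tor stood at percentile 38.9 and S6k at percentile 77.4 of the genes tested.

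**Figure D3:**
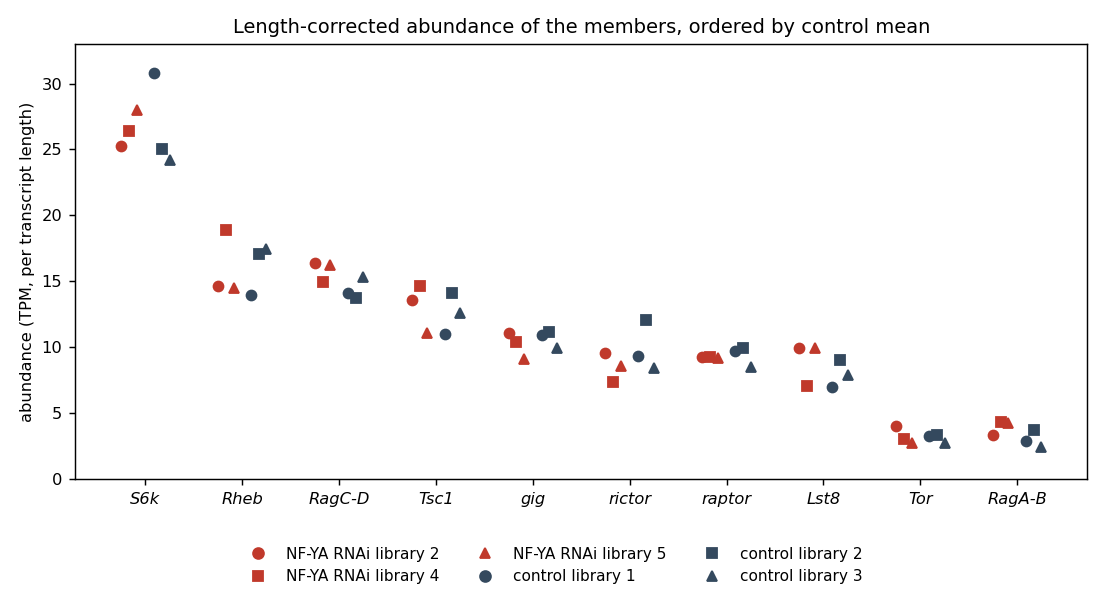
Abundance per transcript length (TPM, y axis) of the 10 genes in each NF-YA RNAi library (red, left of each pair) and each control library (dark blue, right), ordered by the control mean. S6k lies at 24.2 TPM or above in every library, and Tor and RagA-B lie at 4.37 TPM or below.

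Ratios within a library do not depend on how libraries are scaled, so 8 ratios of TPM between partners were compared by an exact two-sided permutation test. The ratio of raptor to rictor was 0.97, 1.26 and 1.07 in NF-YA RNAi libraries 2, 4 and 5, against 1.04, 0.82 and 1.01 in control libraries 1, 2 and 3 (exact p = 0.4). The groups overlapped in this ratio. The ratio of rictor to Tor averaged 2.659 ± 0.445 in NF-YA RNAi and 3.178 ± 0.390 in control (SD, n = 3 each, exact p = 0.3). RagA-B to RagC-D averaged 0.25 ± 0.04 in NF-YA RNAi and 0.21 ± 0.06 in control (SD, n = 3 each, exact p = 0.5). Tsc1 to gig averaged 1.28 ± 0.11 in NF-YA RNAi and 1.18 ± 0.15 in control (SD, n = 3 each, exact p = 0.6). In each of the 8 ratios, which also included raptor, Lst8 and S6k to Tor and Rheb to gig, the groups overlapped, and the adjusted p of all 8 by this exact test was 0.9, in a design whose smallest unadjusted p is 0.1.

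The transcript estimates behind the gene sums were steady for some genes and not for others. S6k-RA made up 78.0%, 66.8% and 73.0% of the S6k TPM in NF-YA RNAi libraries 2, 4 and 5, against 76.2%, 76.8% and 68.2% in the controls. S6k-RB made up the rest, and both carry the same coding sequence of 1470 bases. The groups overlapped in this share. Rheb-RA held at least 95.9% of Rheb in every library. All estimated counts of raptor went to raptor-RB and all of gig to gig-RA, and Lst8, Tsc1, RagA-B and RagC-D have 1 annotated transcript each.

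For rictor, the share of rictor-RA was 21.8% and 89.2% in NF-YA RNAi libraries 2 and 5 and the whole in library 4, against 51.0%, 82.6% and 42.6% in the controls. The share thus ran over most of the possible range within NF-YA RNAi, and the groups overlapped. The coding sequences of rictor-RA, rictor-RB and rictor-RC have 5808, 5748 and 5772 bases, so the files divide largely shared reads between them. Tor-RB, whose coding sequence is 7413 bases long against 7410 in Tor-RA, was given 6.35% of the Tor TPM in NF-YA RNAi library 4, 26.8% in control library 2 and none in the other 4 libraries. These shares are estimates and were not tested.

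**Figure D4:**
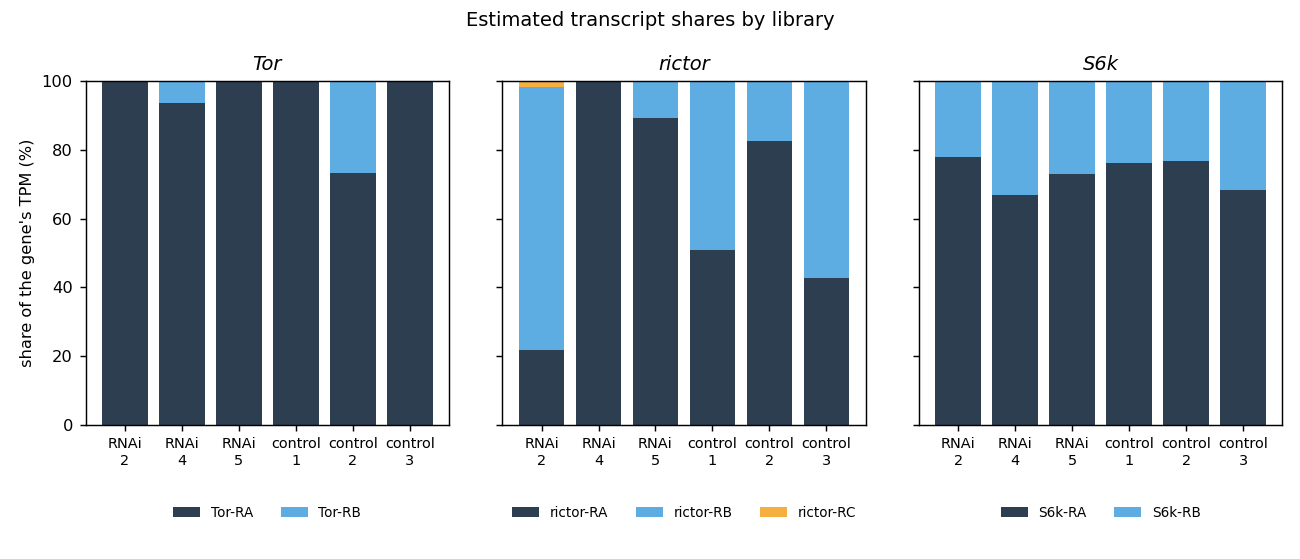
Share of the TPM of Tor, rictor and S6k (y axis, percent) that Salmon assigned to each annotated transcript, for NF-YA RNAi libraries 2, 4 and 5 and control libraries 1, 2 and 3. The rictor-RA share runs from 21.8% to the whole bar within NF-YA RNAi, while the S6k-RA share stays between 66.8% and 78.0%.

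Among other genes of the pathway some were called, and these were all lower in NF-YA RNAi. Of 44 listed genes by role, 43 were matched and tested (Fnip was not matched), 0 were called higher and 12 were called lower in NF-YA RNAi (27.9% of the list, against 8.02% of all genes tested), by edgeR. The median log2 fold change was -0.20, with 33 genes below 0 and 10 above. At an unadjusted p under 0.05, edgeR had 15 lower and 1 higher. DESeq2 called 14 lower and 1 higher, Tif-IA, which is named here after its value was seen. The study picked PRAS40, Sesn, Iml1, scyl, chrb, REPTOR and REPTOR-BP from these same libraries, and all of these but chrb are among the 12. Neither their place in the list nor the share of 27.9% is therefore independent evidence of its direction.

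Among partners of the complexes, PRAS40, an inhibitory partner of complex 1, fell to 26.8, 27.8 and 29.0 CPM in NF-YA RNAi libraries 2, 4 and 5, against 46.0, 38.6 and 34.6 CPM in the controls. All NF-YA RNAi libraries were below all controls, as in 19.4% of all genes tested. The fitted log2 fold change was -0.51 (adjusted p = 0.028 and standard error 0.13 by edgeR), and PRAS40 was called in 9 of the 16 alternative fits. Sin1, the other gene listed as a partner, was not called (log2 fold change 0.34, adjusted p = 0.29 by edgeR). None of the 6 Ragulator and folliculin genes, which anchor and regulate the Rag GTPases, was called (0 at an unadjusted p under 0.05 by edgeR, and 0 called by DESeq2). Of all genes tested, edgeR called 14.2% and gave 29.3% an unadjusted p under 0.05. DESeq2 called 21.3% of the genes to which it gave an adjusted p. At these shares, 0 of 6 says little. The smallest p among these was that of Lamtor5, with 19.6 ± 2.94 CPM in NF-YA RNAi and 23.5 ± 1.24 CPM in control (SD, n = 3 each, adjusted p = 0.25 by edgeR).

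Of the 10 GATOR and sensor genes, 2 were called, both lower (8.02% of all genes tested were called lower). These 2, Sesn and Iml1, are among the genes that the study picked from the same libraries. Sesn, the fly Sestrin, which restrains complex 1, fell to 29.4, 28.9 and 24.2 CPM in NF-YA RNAi libraries 2, 4 and 5, against 60.3, 56.0 and 44.3 CPM in the controls. The estimate was -0.96 on the log2 scale (adjusted p = 0.0032 and standard error 0.14 by edgeR). Every NF-YA RNAi library was below every control, as in 19.4% of all genes tested. Iml1, a subunit of GATOR1, the complex that switches RagA-B off, averaged 42.6 ± 3.34 CPM in NF-YA RNAi and 60.5 ± 4.66 CPM in control (SD, n = 3 each, log2 fold change -0.51, adjusted p = 0.016 by edgeR). Its GATOR1 partners Nprl2 (log2 fold change -0.0083, adjusted p = 0.99 by edgeR) and Nprl3 (0.05, adjusted p = 0.89 by edgeR) were not called. GATOR1 and Sestrin act on complex 1 through RagA-B and RagC-D, which were not called.

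Upstream of TSC, 3 of 13 genes were called, all lower (8.02% of all genes tested were called lower). The insulin receptor InR averaged 50.2 ± 6.32 CPM in NF-YA RNAi and 78.8 ± 11.99 CPM in control (SD, n = 3 each, log2 fold change -0.65, adjusted p = 0.015 by edgeR). Pdk1, a kinase that activates Akt and S6k, averaged 61.0 ± 11.3 CPM in NF-YA RNAi and 88.9 ± 11.3 CPM in control (SD, n = 3 each, log2 fold change -0.54, adjusted p = 0.038 by edgeR). The REDD family gene scyl, an inhibitor of complex 1, averaged 40.1 ± 6.51 CPM in NF-YA RNAi and 62.5 ± 8.48 CPM in control (SD, n = 3 each, log2 fold change -0.64, adjusted p = 0.021 by edgeR). Its relative chrb was not called, with 10.4 ± 2.76 CPM in NF-YA RNAi and 12.8 ± 3.76 CPM in control (SD, n = 3 each, log2 fold change -0.30, adjusted p = 0.49 by edgeR), and its groups overlapped. The called genes thus include activators and inhibitors of the pathway.

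Downstream, 6 of 12 genes were called, all lower (8.02% of all genes tested were called lower). SREBP, a transcription factor of lipid synthesis, fell to 277, 248 and 268 CPM in NF-YA RNAi libraries 2, 4 and 5, against 619, 581 and 521 CPM in the controls (log2 fold change -1.12, standard error 0.10, adjusted p = 0.00018 by edgeR). REPTOR, a transcription factor that complex 1 holds back, fell to 54.1, 49.2 and 38.0 CPM in NF-YA RNAi libraries 2, 4 and 5, against 95.7, 96.1 and 78.3 CPM in the controls (log2 fold change -0.93, standard error 0.15, adjusted p = 0.0041 by edgeR). In both genes every NF-YA RNAi library was below every control, as in 19.4% of all genes tested. REPTOR-BP, the partner of REPTOR, had a log2 fold change of -0.59 and an adjusted p of 0.034, the growth regulator Myc -0.66 and 0.0077, foxo, a transcription factor restrained by insulin signalling, -0.51 and 0.032, and RpS6, the ribosomal substrate of S6k, -0.27 and 0.038 (edgeR). RpS6 lay at 5764 ± 512 CPM in NF-YA RNAi and 6970 ± 196 CPM in control (SD, n = 3 each), and was called in 6 of the 16 alternative fits.

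The count of 12 depended on single libraries and on the scaling. With NF-YA RNAi library 2, 4 or 5 omitted it was 9, 5 or 4, and with control library 1, 2 or 3 omitted it was 5, 7 or 10. Over all genes tested, the same fits in the same order called 736, 314 and 339 genes lower, and 357, 415 and 687. The fit with no library omitted called 728 lower. The estimates of the 12 genes stayed below 0 with each library omitted. Sesn, REPTOR, SREBP and Myc were called lower in all 6 of these fits. InR was called in 4 of them and scyl in 3. Iml1, Pdk1 and REPTOR-BP were each called in 2, and PRAS40, foxo and RpS6 each in 1. Scaling by library size only left 8 called, without Pdk1, foxo, REPTOR-BP and RpS6, and called 541 of all genes tested lower. With the enterocyte marker level as a covariate, 1 of the other genes, SREBP, and 0 of the 10 members were called. In that fit the standard errors were larger, and the log2 fold changes of the 12 genes were all still below 0. Sesn was at -0.62 (standard error 0.22), PRAS40 at -0.42 (0.23), Iml1 at -0.37 (0.19) and foxo at -0.38 (0.24). InR was at -0.23 (0.17) and Pdk1 at -0.21 (0.21), against -0.65 and -0.54 without the covariate. That fit called 27 genes higher and 22 lower in all, and the part of the enterocyte and enteroendocrine markers in the change of the other genes was not tested.

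**Figure D5:**
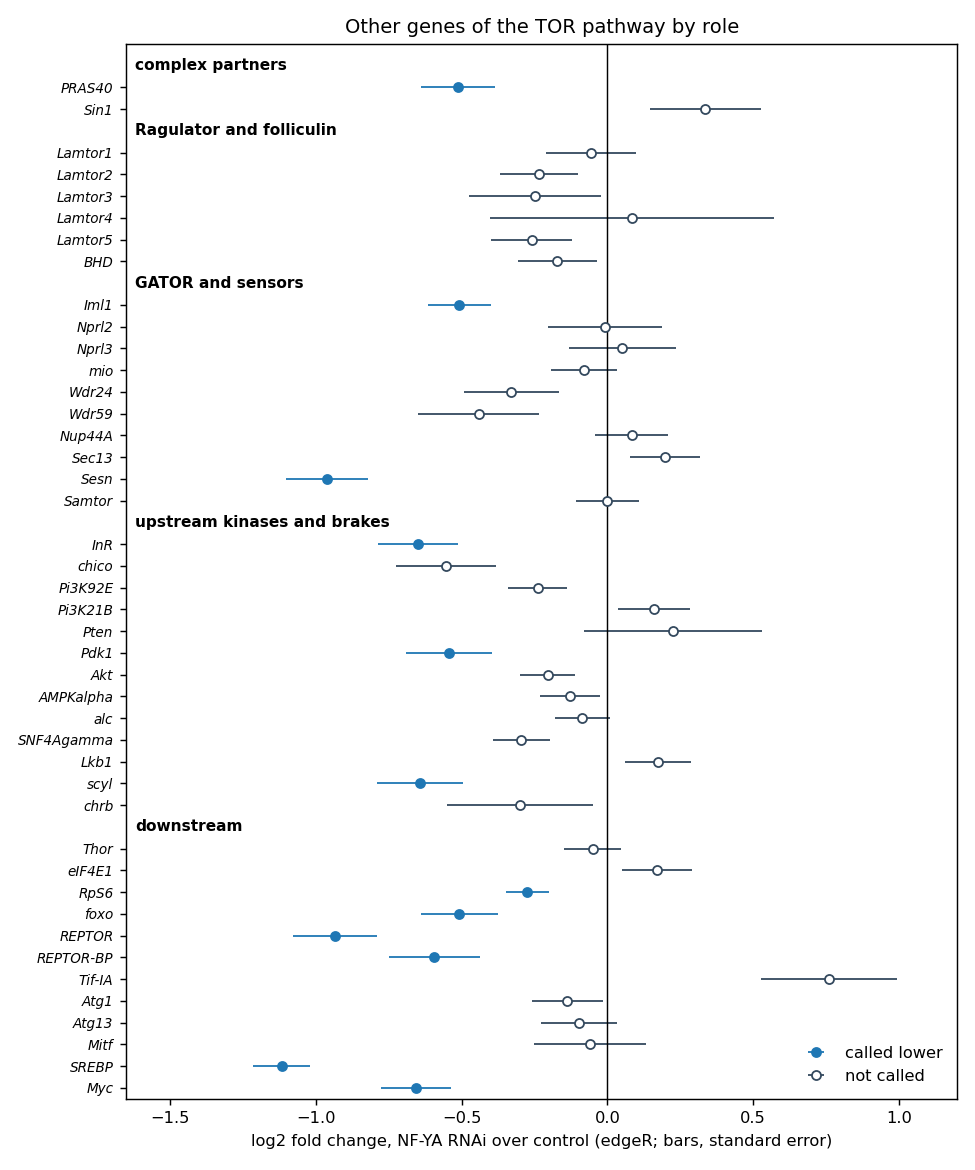
Log2 fold change in NF-YA RNAi over control (x axis) of the 43 other genes tested, grouped by role, with standard errors as bars, and filled points for the genes called by edgeR. The 12 filled points all lie below 0, between -1.12 (SREBP) and -0.27 (RpS6).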

How the data were processed

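Per the methods of the study, the authors ran nf-core/rnaseq, with Trim Galore for trimming, STAR for alignment and Salmon for estimated counts per transcript. The labels' processing notes instead list FastQC, Trimmomatic, TopHat2, HTSeq and limma. The deposited files hold Salmon's estimated counts, without normalization, and TPM values per transcript. The deposited gene table holds a normalized signal, gene counts divided by the authors' factors, for 8470 genes. Its fold changes and p-values are the authors' own comparison and were not used. The filter behind the table and the strand setting are not given in the sources used here.

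Estimated counts were summed over the transcripts of each gene of the BDGP6.54 annotation (Ensembl release 115), which gives the coordinates, and rounded. All 17 transcripts of the members had the same length in the files and the annotation. The 44 transcripts outside it, with 0.209% to 0.345% of the counts, were left out. The effective transcript lengths served as offsets in 1 alternative. Genes were filtered by filterByExpr, normalized by TMM and compared by the quasi-likelihood test of edgeR, with adjustment by Benjamini-Hochberg over all 9080 genes tested (edgeR 4.0.16, R 4.3.3). Standard errors are the log2 fold change over the root of F. Alternatives, 16 in all, used DESeq2 1.42.0, limma 3.58.1 (prior count 2 on log2 CPM, pseudocount 1 on the deposited table), other scalings and filters, a covariate, a replicate block and each library left out. Ratios were tested with exact permutations. The main edgeR fit and those with DESeq2, length offsets and library size only were also run on counts simulated with edgeR's own dispersions. The other fits were not. Python 3.11.15 with pandas 2.3.3, matplotlib 3.10.9 and numpy 2.4.6 was used for tables and plots. Every pair of libraries differed by more than sampling noise (lowest chi-square over degrees of freedom 69.1). The labels give the libraries as separate samples and the study as independent ones. The members, lists and tests were chosen with earlier results of these data known. Genes named are the members, the called genes of a fixed pathway list and, in a role with none, the one with the smallest p, the NF-Y subunits and genes that overlap a member. The genes esg, chrb, Sin1, Nprl2, Nprl3 and Tif-IA were named after their values were seen. CCAAT boxes in promoters were not analysed here.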

Additional observations from a re-analysis of the deposited data

How the results depend on the processing

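The 10 members were called in 0 of the 16 alternatives. Estimates of rictor, raptor and RagA-B kept their sign in all 16. Other estimates turned sign. With library size only, which moved the median of all genes from -0.02 to 0.07, Tor was 0.068, S6k 0.0067 and Tsc1 0.064. With the enterocyte marker level as a covariate, which did not overlap between the groups, Tor was 0.46, Tsc1 0.059, gig 0.101 and Nf-YC 0.064. Leaving out a library gave -0.20 to 0.11 for Tor, -0.17 to 0.049 for S6k, -0.11 to 0.10 for Tsc1, -0.0084 to 0.11 for RagC-D and -0.26 to 0.14 for Nf-YB. Nf-YB was -0.00052 with no filter on low counts, -0.035 with transcript length offsets, -0.023 with limma and -0.046 in the deposited table.

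Over all genes, library size only made 59.2% of calls higher, against 43.6%, and left 8 other pathway genes lower. RpS6 was not called in either limma fit (adjusted p = 0.088 and 0.087) nor with the replicate block (adjusted p = 0.38), which rests on part of the libraries, as given below. The covariate left 27 genes higher, 22 lower and 1 other pathway gene lower. Leaving out a library gave 188 to 507 genes higher, 314 to 736 lower, 4 to 10 other pathway genes lower and 0 to 1 higher. Tif-IA was the 1 called higher, also with DESeq2, with library size only, with no filter on low counts and with at least 10 counts in every library. The causes were not tested.

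Replicate numbers in the titles, shared by 2 pairs, did not pair the libraries (correlations of deviations 0.05 and -0.02). Control library 3 and NF-YA RNAi library 5 share their title number with no other library. In the replicate block they therefore add nothing to the group difference, which rests on NF-YA RNAi libraries 2 and 4 and control libraries 1 and 2. The replicate block gave 271 genes higher (34.4% of calls), 6 other pathway genes lower, and Tor 0.0020, Lst8 -0.0083, Rheb 0.030, Tsc1 0.10 and Nf-YB -0.029. With 3 libraries a group, the intervals given limit what a missing call can say.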
